A study of Homo sapiens with 8 samples.

Results

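Microtubules are hollow tubes built from dimers of alpha tubulin and beta tubulin, and human cells carry several genes, called isotypes, for each subunit. The isotypes encode closely related proteins that differ most in the acidic tail at the carboxyl end, where enzymes add or remove residues and motor proteins and other partners bind. Microtubules position organelles, carry vesicles towards the bile canaliculus in hepatocytes and form the spindle of dividing cells. Cells also sense their pool of unpolymerised tubulin and degrade tubulin mRNA while it is being translated, a control that reads the first residues of the nascent chain.

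The 10 genes described here are the alpha isotypes TUBA1A, TUBA1B, TUBA1C and TUBA4A and the beta isotypes TUBB, TUBB2A, TUBB2B, TUBB3, TUBB4B and TUBB6, of 38032 gene identifiers in the data. They are a list of symbols, with no threshold on values, chosen with earlier results of these data known, and all 10 were among the 13943 genes tested, which reached 10 counts in 2 or more libraries. The cells were HepG2, an established line from a human liver carcinoma, drawn from a common pool that had been grown in 2D. The 4 2D-primed cultures were grown on flat tissue culture polystyrene and the 4 3D-primed cultures on Alvetex Strata, a porous polystyrene scaffold. Each was grown for 8 days, and the groups differ in no other label. The study describes seeding the scaffold at a higher density than the flat wells, so surface and seeding density cannot be told apart. Polyadenylated RNA was sequenced in read pairs with a directional kit, and the deposited values are estimated counts per gene. The sources used here number the replicates of each group without saying how the cultures were separated, so the p-values measure the spread between these samples, which may be technical.

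Library totals were 21599630 to 25019499 counts after 2D priming and 22153063 to 27844077 after 3D priming. Hepatocyte markers were high in every library, with a summed level of 60505 to 66187 CPM in 2D-primed and 78583 to 89262 CPM in 3D-primed cells for 7 genes, albumin among them. Of these, 5 were higher in 3D-primed cells and 2 lower, APOB from 12693 to 10690 CPM and SERPINA1 from 10748 to 9771 CPM on average. Of the markers of other cells, PTPRC and CD3E of leukocytes, KDR of endothelium, COL1A2, DCN and LUM of fibroblasts and RBFOX3, SNAP25, ELAVL3, ELAVL4 and STMN2 of neurons had no library above 4 counts. Other markers were detected at low levels: the pericyte and fibroblast receptor PDGFRB at 10.7 ± 0.432 CPM after 2D priming and 16.4 ± 1.22 after 3D priming, and the endothelial CDH5 at 4.73 ± 0.703 and 1.59 ± 0.330, VWF at 1.11 ± 0.303 and 1.71 ± 0.241 and PECAM1 at 1.03 ± 0.267 and 1.41 ± 0.268. COL1A1 was at 0.969 ± 0.226 and 0.0703 ± 0.0490 CPM. LYZ and CD68, which leukocytes also express, were at 2168 ± 39.7 and 72.7 ± 1.12 CPM in 2D-primed cells, and at 2642 ± 262 and 34.4 ± 3.99 CPM after 3D priming (SD, n = 4). The 5 fibroblast markers summed to 11.0 to 12.1 CPM after 2D priming and 15.1 to 18.1 after 3D priming, the 4 endothelial markers to 5.58 to 7.72 and 4.16 to 5.70, and the 6 neuronal markers to 2.38 to 3.63 and 7.82 to 9.81, and their part in the results was not tested. CPM is the count per 1000000 counts of a library after TMM scaling, which adjusts the library sizes to each other. In such bulk samples, fewer cells of a type and less RNA per cell cannot be told apart.

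The ends of the beta coding sequences are shown because they encode the tails that set the isotypes apart. Each line holds the last 60 bases up to and including the stop codon, from the last exon of the reference transcript in the GENCODE annotation of GRCh38. Capitals mark bases that differ from TUBB, or have no counterpart in it, in an alignment of the whole coding sequences.
TUBB, chr6:30724338-30724397, plus strand: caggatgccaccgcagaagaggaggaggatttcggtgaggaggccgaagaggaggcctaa
TUBB4B, chr9:137243497-137243556, plus strand: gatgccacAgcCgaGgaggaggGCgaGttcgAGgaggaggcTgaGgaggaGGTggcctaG
TUBB2A, chr6:3153863-3153922, minus strand: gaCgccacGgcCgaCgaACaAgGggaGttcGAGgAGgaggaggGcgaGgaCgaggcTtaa
TUBB2B, chr6:3224751-3224810, minus strand: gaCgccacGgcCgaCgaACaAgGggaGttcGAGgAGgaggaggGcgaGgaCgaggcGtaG
TUBB3, chr16:89935745-89935804, plus strand: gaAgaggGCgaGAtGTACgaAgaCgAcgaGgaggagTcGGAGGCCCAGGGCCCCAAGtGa
TUBB6, chr18:12326071-12326130, plus strand: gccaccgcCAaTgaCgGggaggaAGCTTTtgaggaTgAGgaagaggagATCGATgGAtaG

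The end of TUBB4B had the fewest marked bases, 14, and the end of TUBB3 the most, 34. These numbers include bases with no counterpart in TUBB, whose coding sequence has 1335 bases, against 1353 in TUBB3. TUBB6 had 23 marked bases, and TUBB2A and TUBB2B had 18 and 19. Over the whole coding sequence the alpha isotypes were 84.4 to 97.2% identical in pairs and the beta isotypes 80.9 to 98.1%, whereas an alpha and a beta isotype shared 52.2 to 53.9% of their aligned bases. The closest pair was TUBB2A and TUBB2B at 98.1%. The stretch that the tubulin mRNA control reads opens with atgagggaaatc in TUBB and TUBB4B, atgagggagatc in TUBB3 and TUBB6, atgcgcgagatc in TUBB2A and atgcgtgagatc in TUBB2B, which differ only in synonymous bases.

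Such likeness bears on the counts, because a read that fits several genes has to be divided between them by the counting tool. Of the 31-base words of the reference transcript, 72.2% for TUBA1B, 59.3% for TUBA1A and 37.7% for TUBA1C also occurred in a transcript of another gene. The share was 69.0% for TUBB2A and 56.3% for TUBB2B, mostly with each other, 33.5% for TUBB and 20.7% for TUBB4B. It was lowest for TUBA4A at 12.6% and TUBB6 at 6.76%, and with 100-base words it was 1.95% and 0%. For TUBB3 it was 94.0%, nearly all of it with ENSG00000198211, an unnamed protein-coding model that overlaps TUBB3 on the same strand and received 33 to 114 counts per library. The values of TUBA1A, TUBA1B, TUBA1C, TUBB2A, TUBB2B and TUBB3 are therefore uncertain in how reads were divided. TUBB lies in the major histocompatibility region of chromosome 6, for which the Ensembl transcript set also lists alternate haplotypes. Reads assigned to identifiers of such copies, which the annotation used here does not name, are not in its value. How many there are was not tested, and they may be many, since unnamed identifiers of all kinds carried 2.38 to 2.57% of the counts of a library. The level and change of TUBB, the beta total and all beta shares hold for the reads assigned to the named gene. The same holds for every ratio or order that involves TUBB or the beta total. TUBA1A and TUBA1C overlap each other on opposite strands, and STK16, MDC1, BPHL, PSMG4 and AFG3L2 overlap TUBA4A, TUBB, TUBB2A, TUBB2B and TUBB6 in that way. The strand setting used in counting is not given in the sources used here.

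**Figure D1:**
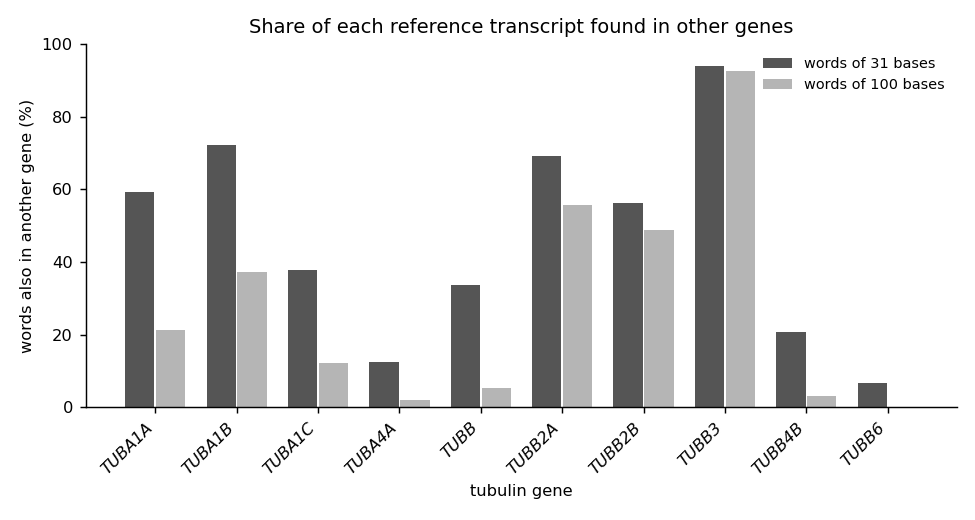
Share of the words of 31 bases (dark) and 100 bases (light) of each isotype's reference transcript that also occur in a transcript of another gene, in percent from 0 to 100. TUBB3 stands at 94.0% for 31-base words and TUBB6 at 6.76%.

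Per kilobase of reference transcript, TUBB, TUBA1B, TUBB4B and TUBA1C were the 4 highest isotypes in both groups. In 2D-primed cells TUBB stood at 357 ± 15.2 CPM per kilobase and TUBA1B at 347 ± 10.9, and their ranges overlapped. TUBB4B followed at 170 ± 6.73 and TUBA1C at 122 ± 3.10, each apart from its neighbours in that order. TUBB3 (59.3 ± 1.43) and TUBB2A (58.4 ± 4.32) overlapped, and TUBB2B (19.3 ± 2.94), TUBB6 (9.43 ± 1.03), TUBA4A (5.18 ± 0.457) and TUBA1A (2.27 ± 0.130) came last, with no overlap between neighbours. In 3D-primed cells TUBA1B, at 353 ± 27.5 CPM per kilobase, lay above TUBB at 265 ± 6.49 with no overlap, an order that reads of TUBB under other identifiers could turn. TUBA4A, at 3.64 ± 0.655, came before TUBB6, at 2.71 ± 0.390, and TUBB6 overlapped TUBA1A at 2.22 ± 0.5002. All values are mean ± SD of 4 libraries, and the lengths are those of 1 transcript a gene, since transcript-level values were not used here.

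With 3D priming, 6 of the 10 isotypes were differentially expressed, all 6 of them lower in 3D-primed cells. They were 5 of the 6 beta isotypes, TUBB, TUBB2A, TUBB2B, TUBB3 and TUBB6, and 1 of the 4 alpha isotypes, TUBA4A. A gene was called at a Benjamini-Hochberg adjusted p below 0.05 over all genes tested, by edgeR's quasi-likelihood F test. Of the 13943 genes tested, 63.9% were called, 31.6% as lower and 32.4% as higher in 3D-primed cells, so the number of isotypes called was close to that background. The median log2 fold change, given as 3D-primed over 2D-primed throughout, was -0.43 over the 10 isotypes and 0.01 over all genes tested. The libraries of the groups did not overlap in these same 6 isotypes, where 59.8% of all genes tested had groups that did not overlap.

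**Figure D2:**
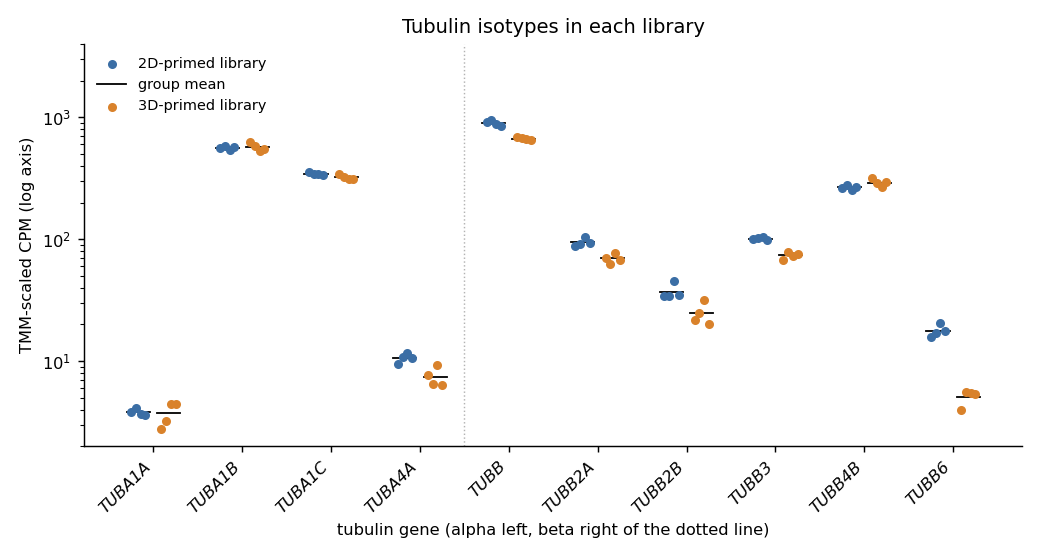
TMM-scaled CPM of each isotype in each library on a log axis, with blue points for 2D-primed, orange points for 3D-primed libraries and a black line at each group mean. The 3D-primed points lie below all 2D-primed points for TUBA4A, TUBB, TUBB2A, TUBB2B, TUBB3 and TUBB6 and overlap them for TUBA1A, TUBA1B, TUBA1C and TUBB4B.

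**Figure D3:**
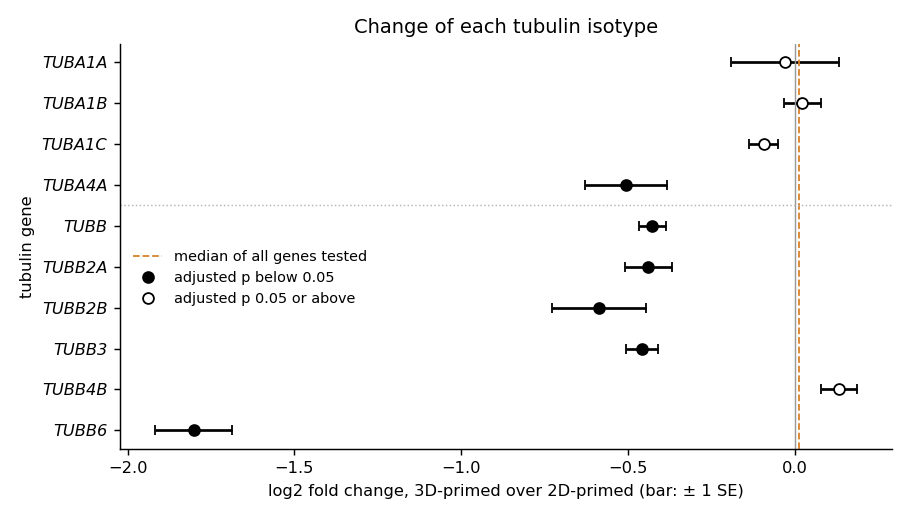
Log2 fold change of each isotype, 3D-primed over 2D-primed, with bars of 1 standard error, filled where the adjusted p of edgeR was below 0.05. TUBB6 stands apart at -1.80, the other 5 called isotypes lie between -0.59 and -0.43, and the dashed line marks the median of all genes tested at 0.01.

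Of the alpha isotypes, TUBA1B (ENSG00000123416, chromosome 12, 49127782 to 49131397, minus strand) was the most abundant. It encodes the alpha tubulin that most dividing cells use. Its level was 561, 580, 541 and 576 CPM in the 2D-primed libraries 1 to 4 and 631, 584, 527 and 552 CPM in the 3D-primed libraries 1 to 4. The 3D-primed values spread to either side of the 2D-primed ones. This was a log2 change of 0.02, standard error 0.0556 (edgeR, adjusted p = 0.74), and its approximate interval ran from -0.09 to 0.13.

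TUBA1C (ENSG00000167553, chromosome 12, 49188736 to 49274600, plus strand), a further widely expressed alpha isotype, was at 355, 346, 345 and 334 CPM after 2D priming and 344, 326, 310 and 312 CPM after 3D priming. The groups overlapped only through 3D-primed library 1. On the log2 scale the difference was -0.09, standard error 0.0429 (edgeR, adjusted p = 0.079). Without 3D-primed library 1 it was -0.13, and the adjusted p fell to 0.018 in edgeR. When TUBA1A, TUBA1B and TUBA1C were counted as 1 gene, the log2 fold change was -0.02 (edgeR, adjusted p = 0.73).

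TUBA1A (ENSG00000167552, chromosome 12, 49184686 to 49189080, minus strand) is the alpha isotype of developing neurons. It was near the bottom of the set, at 3.80, 4.11, 3.66 and 3.63 CPM after 2D priming and 2.79, 3.23, 4.44 and 4.41 CPM after 3D priming, from 73 to 124 counts a library. In 3D-primed cells, 2 libraries lay below and 2 above all 2D-primed libraries. This was a log2 change of -0.03, standard error 0.163 (edgeR, adjusted p = 0.88).

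TUBA4A (ENSG00000127824, chromosome 2, 219249710 to 219277902, minus strand), whose coding sequence does not end in a tyrosine codon, fell. A final tyrosine of alpha tubulin is the residue that carboxypeptidases remove and tubulin tyrosine ligase restores. It was at 9.39, 10.9, 11.6 and 10.5 CPM after 2D priming and 7.66, 6.51, 9.28 and 6.39 CPM after 3D priming. All 3D-primed libraries were lower, although the highest of them, library 3, lay just under the lowest 2D-primed library. On the log2 scale the difference was -0.51, standard error 0.123 (edgeR, adjusted p = 0.0045), a 1.42-fold lower level.

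Of the beta isotypes, TUBB (ENSG00000196230, chromosome 6, 30717435 to 30725538, plus strand) encodes the main beta tubulin of most cultured cells and had the highest CPM of the 10. It was counted at 908, 943, 887 and 852 CPM after 2D priming and 684, 675, 663 and 646 CPM after 3D priming. The lowest 2D-primed library lay well above the highest 3D-primed library. This was a log2 change of -0.43, standard error 0.0407 (edgeR, adjusted p = 7.4e-06), a 1.35-fold lower level.

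TUBB4B (ENSG00000188229, chromosome 9, 137241287 to 137243707, plus strand), a widely expressed isotype that is also used in cilia, was not called. Its level was 264, 278, 252 and 269 CPM after 2D priming and 316, 291, 266 and 293 CPM after 3D priming. Of the 3D-primed libraries, 3 lay above all 2D-primed ones, and library 3 lay among them. The log2 change was 0.13, standard error 0.0539, and the adjusted p was 0.051 in edgeR, just above the threshold. In 8 of 17 alternative settings the adjusted p fell below 0.05, at log2 fold changes of 0.12 to 0.18, so that the call rests on the setting and its direction does not. Over the fits that left out 1 library the log2 change ran from 0.09 to 0.17. Leaving out 2D-primed library 2 or 3D-primed library 3 brought the adjusted p to 0.048 and 0.011, and leaving out 2D-primed library 3 or 3D-primed library 1 to 0.13 and 0.15, at log2 changes of 0.11 and 0.09 (edgeR). TUBB4B counts for each TUBB count were 0.291, 0.295, 0.285 and 0.315 after 2D priming and 0.461, 0.432, 0.402 and 0.453 after 3D priming. The 3D-primed libraries were all higher, a description with no test, since the pair was chosen after its values were seen.

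TUBB2A (ENSG00000137267, chromosome 6, 3153497 to 3157544, minus strand) and TUBB2B (ENSG00000137285, chromosome 6, 3223324 to 3231730, minus strand) are neighbouring near-copies, expressed strongly in brain. TUBB2A was at 88.1, 92.1, 104 and 92.8 CPM after 2D priming and 70.7, 62.6, 77.6 and 67.3 CPM after 3D priming. TUBB2B was at 33.9, 34.2, 45.5 and 34.6 CPM after 2D priming and 21.8, 25.0, 31.6 and 20.3 CPM after 3D priming. In both genes library 3 was the highest of its group, and no 3D-primed library reached the 2D-primed range. For TUBB2A the log2 change was -0.44, standard error 0.0714 (edgeR, adjusted p = 3.3e-04). For TUBB2B it was -0.59, standard error 0.142 (edgeR, adjusted p = 0.0042). Counted as 1 gene they gave -0.48 on the log2 scale (edgeR adjusted p = 5.7e-04), which does not depend on how reads were divided between the pair. The ratio of TUBB2A to TUBB2B counts was 2.57 ± 0.187 after 2D priming and 2.88 ± 0.463 after 3D priming, a difference within the spread (two-sided exact permutation test, p = 0.31).

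TUBB3 (ENSG00000258947, chromosome 16, 89921392 to 89938761, plus strand) is the beta isotype by which neurons are commonly recognised, and carcinoma cells often express it. Its level was 99.5, 102, 104 and 98.9 CPM after 2D priming and 68.0, 79.1, 73.0 and 74.9 CPM after 3D priming, with a wide gap between the groups. On the log2 scale the difference was -0.46, standard error 0.0479 (edgeR, adjusted p = 1.5e-05). Summed with the overlapping model ENSG00000198211, TUBB3 was at 105 ± 2.75 CPM after 2D priming and 75.3 ± 4.75 CPM after 3D priming, a log2 ratio of -0.48. Of 6 neuronal markers, the vesicle protein gene SYP was the 1 tested, at 2.70 ± 0.488 CPM after 2D priming and 8.49 ± 0.897 CPM after 3D priming, and the other markers had at most 4 counts in a library.

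TUBB6 (ENSG00000176014, chromosome 18, 12307669 to 12344320, plus strand) encodes a divergent beta tubulin. It fell the most of the 10 isotypes. Its level was 15.9, 16.9, 20.4 and 17.7 CPM after 2D priming and 4.00, 5.58, 5.45 and 5.32 CPM after 3D priming. The highest 3D-primed library stood far below the lowest 2D-primed library. This was a log2 change of -1.80, standard error 0.115 (edgeR, adjusted p = 5.2e-07), a 3.49-fold lower level, and it stayed between -1.85 and -1.71 over 17 alternative settings. TUBB6 counts for each TUBB count were 0.0198 ± 0.00258 after 2D priming and 0.00764 ± 0.00120 after 3D priming. This pair was chosen after its values were seen, and its ratio is given as a description.

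Summed over the isotypes, beta tubulin message was lower in 3D-primed cells and alpha tubulin message was not apart between the groups. The 6 beta isotypes together held 1409, 1466, 1413 and 1364 CPM after 2D priming and 1164, 1138, 1117 and 1107 CPM after 3D priming. The means were 1413 ± 41.6 and 1132 ± 25.3 CPM, a ratio of 0.801. The 4 alpha isotypes together held 930, 941, 902 and 924 CPM after 2D priming and 985, 920, 852 and 875 CPM after 3D priming, with a ratio of means of 0.983 and overlapping groups. Counts of alpha for each count of beta were 0.654 ± 0.0179 after 2D priming and 0.802 ± 0.0353 after 3D priming, and 0.708 ± 0.0204 and 0.854 ± 0.0387 when each gene was first divided by its transcript length. These sums are descriptions, with no test, because the genes in them were also tested singly.

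As shares of the beta total, which do not depend on how libraries were scaled, TUBB was lower and TUBB4B higher in 3D-primed cells. TUBB took 64.4, 64.3, 62.7 and 62.4% of beta counts after 2D priming and 58.8, 59.3, 59.4 and 58.4% after 3D priming. TUBB4B took 18.8, 19.0, 17.9 and 19.7% after 2D priming and 27.1, 25.6, 23.8 and 26.5% after 3D priming. The groups did not overlap for either, with a difference of -4.52 percentage points for TUBB and 6.94 for TUBB4B (two-sided exact permutation tests, p = 0.029 each, the smallest p that 4 against 4 allow, unadjusted, of 10 shares compared). Shares of the same total depend on each other. The higher share of TUBB4B goes with lower levels of the other 5 beta isotypes, and its own level was not called.

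The remaining beta shares were smaller. TUBB6 took 1.12, 1.16, 1.44 and 1.30% after 2D priming and 0.344, 0.490, 0.488 and 0.481% after 3D priming, with no overlap (two-sided exact permutation test, p = 0.029). TUBB3 went from 7.16 ± 0.188% to 6.52 ± 0.483%, also without overlap (two-sided exact permutation test, p = 0.029). The highest 3D-primed share of TUBB3, 6.95%, lay just under the lowest 2D-primed share, 6.96%, and the difference of -0.64 percentage points was -0.41 without 3D-primed library 1. The p became 0.057 when all beta tubulin genes and pseudogenes entered the total (exact permutation test). TUBB2A took 6.68 ± 0.532% and 6.15 ± 0.596%, and TUBB2B 2.62 ± 0.406% and 2.18 ± 0.460%, in 2D-primed and 3D-primed cells, and for both the groups overlapped.

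Within the alpha total no share was apart between the groups. TUBA1B took 60.4, 61.7, 59.99 and 62.4% after 2D priming and 64.0, 63.5, 61.9 and 63.1% after 3D priming, a difference of 2.03 percentage points (two-sided exact permutation test, p = 0.057). TUBA1C took 37.3 ± 1.08% and 35.6 ± 0.637% (two-sided exact permutation test, p = 0.057). TUBA4A, which fell in level, took 1.15 ± 0.115% and 0.826 ± 0.178% (two-sided exact permutation test, p = 0.057), and TUBA1A 0.411 ± 0.0182% and 0.415 ± 0.117%.

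**Figure D4:**
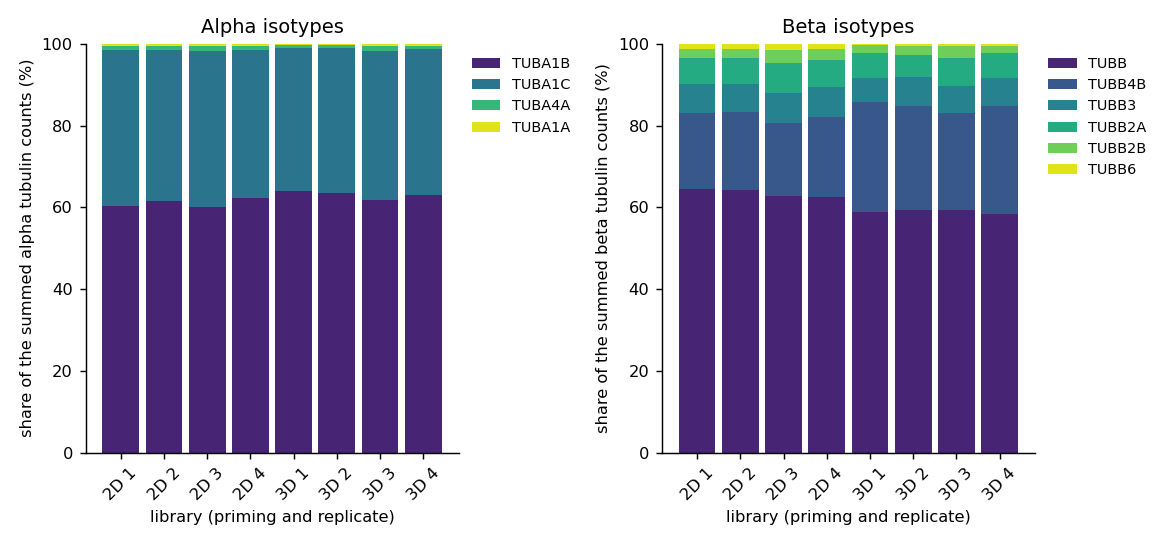
Share of each isotype in the summed counts of the 4 alpha isotypes (left) and the 6 beta isotypes (right), in percent from 0 to 100, as stacked bars for each library. The TUBB4B segment widens from 17.9 to 19.7% in 2D-primed libraries to 23.8 to 27.1% in 3D-primed libraries, and the alpha segments keep overlapping shares.

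The 10 isotypes held at least 99.4% of the alpha and 96.4% of the beta tubulin counts in every library, with all genes and pseudogenes named as alpha or beta tubulin in the denominator and unnamed identifiers left out of it. Of the 8 other alpha and beta tubulin genes examined, TUBA3C, TUBA3D, TUBA3E and TUBB4A had at most 2 counts in any library and were not tested. TUBA8, a rare alpha isotype, was at 0.302 ± 0.371 and 0.0943 ± 0.189 CPM, and TUBB8, an oocyte isotype, at 0.331 ± 0.148 and 0.237 ± 0.188 CPM in 2D-primed and 3D-primed cells, and neither was called. TUBAL3, a divergent alpha tubulin, fell from 0.464 ± 0.0646 to 0.175 ± 0.0562 CPM (edgeR, adjusted p = 0.0059), from no more than 12 counts a library.

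TUBB1, the beta tubulin of platelets and their precursors, was the only other alpha or beta isotype of this list above 1 CPM. It went from 37.0 ± 5.21 to 27.4 ± 6.91 CPM, -0.43 on the log2 scale (edgeR adjusted p = 0.043) with overlapping groups. Outside this list, TUBB8B was at 2.09 ± 0.655 CPM after 2D priming and 1.33 ± 0.379 after 3D priming (edgeR, adjusted p = 0.056). TUBA4B had at most 5 counts in a library and was not tested. Of 49 tubulin pseudogenes in the files, 36 had no count in any library, 3 were tested, and none exceeded 123 counts in a library. The transcribed pseudogenes TUBA5P and TUBBP5 rose, with log2 fold changes of 0.87 and 0.73, to 4.43 and 4.06 CPM (adjusted p = 1.7e-04 and 5.6e-04 in edgeR).

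Gamma tubulin nucleates microtubules as part of a ring complex, and delta and epsilon tubulin belong to the centriole. TUBG1, the main gamma tubulin gene, was at 94.3 ± 4.41 CPM after 2D priming and 101 ± 2.05 CPM after 3D priming (edgeR, adjusted p = 0.055), and TUBG2 at 16.3 ± 1.21 and 14.8 ± 1.45 CPM (edgeR, adjusted p = 0.16). The centriolar TUBE1 rose from 8.62 ± 0.461 to 12.9 ± 0.450 CPM, 0.58 on the log2 scale (edgeR adjusted p = 1.8e-05). TUBD1 rose from 12.3 ± 0.934 to 16.5 ± 0.445 CPM, 0.43 on the log2 scale (edgeR adjusted p = 1.9e-04). MZT1, a small subunit of the ring complex, fell from 28.8 ± 1.14 to 19.6 ± 1.49 CPM (edgeR, adjusted p = 1.9e-05). Of the 13 genes of these tubulins and the ring complex, 4 rose, 4 fell and 5 were not called, with a median log2 fold change of 0.01. Over all genes tested, 32.4% rose and 31.6% fell.

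The proteins that fold, modify and bind tubulin were also counted, in 7 lists of 106 genes that include the other tubulins above. Of 85 members tested, 20 rose and 32 fell, 61.2% in all, beside the 63.9% of all genes tested. In folding cofactors and prefoldin, which assemble the dimer, 6 of 13 tested rose and 2 fell, beside 32.4% and 31.6% of all genes tested. The median log2 fold change of this list was 0.05. PFDN6, the 1 gene of this list not tested, had no count in any library under its named identifier. Reads under unnamed identifiers were not looked for, so whether the cells express it was not tested. TBCB, a cofactor that binds alpha tubulin, rose by 0.32 on the log2 scale and TBCEL, related to cofactor E, by 0.82, whereas TBCCD1, related to cofactor C, fell by 0.63 (edgeR, adjusted p at most 1.9e-04). TTC5, which recognises nascent tubulin chains and starts the decay of their mRNA, rose from 13.3 ± 1.15 to 17.4 ± 0.931 CPM, 0.39 on the log2 scale (edgeR adjusted p = 7.9e-04). Its partners SCAPER and CNOT11 had log2 fold changes of -0.03 and -0.05 (edgeR, adjusted p = 0.68 and 0.42).

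Among enzymes that modify tubulin tails or lysines, 3 of 18 tested rose and 6 fell, with a median log2 fold change of -0.09. The shares over all genes tested were 32.4% and 31.6%. TTLL4, which adds glutamate residues to tails and other proteins, fell from 105 ± 1.57 to 75.0 ± 3.95 CPM, and the deacetylase HDAC6 from 76.4 ± 2.12 to 59.6 ± 3.54 CPM. TTLL11, which lengthens glutamate chains, rose from 2.30 ± 0.176 to 4.75 ± 0.636 CPM. The log2 fold changes were -0.49, -0.36 and 1.05.

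Of the proteins that bind microtubule ends or the lattice, 12 of 21 tested fell and 3 rose, with a median log2 fold change of -0.39, where 31.6% of all genes tested fell and 32.4% rose. MAP4, the main lattice-binding protein outside neurons, fell from 290 ± 9.12 to 175 ± 5.85 CPM, a log2 fold change of -0.73. The plus-end proteins CLIP2 and MAPRE2 fell by 0.84 and 0.52 on the log2 scale. Of the proteins that sequester, sever or depolymerise, 3 of 13 tested rose and 6 fell, with a median log2 fold change of -0.19. STMN3, a stathmin that binds tubulin dimers, rose from 13.2 ± 1.38 to 41.8 ± 4.83 CPM, a log2 fold change of 1.66. The severing enzyme KATNAL1 and the depolymerising kinesin KIF2C fell by 0.88 and 0.61 on the log2 scale. For these named enzymes and binding proteins the groups did not overlap and the adjusted p of edgeR was at most 7.7e-05, and they are the 3 tested genes of lowest p in each list.

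**Figure D5:**
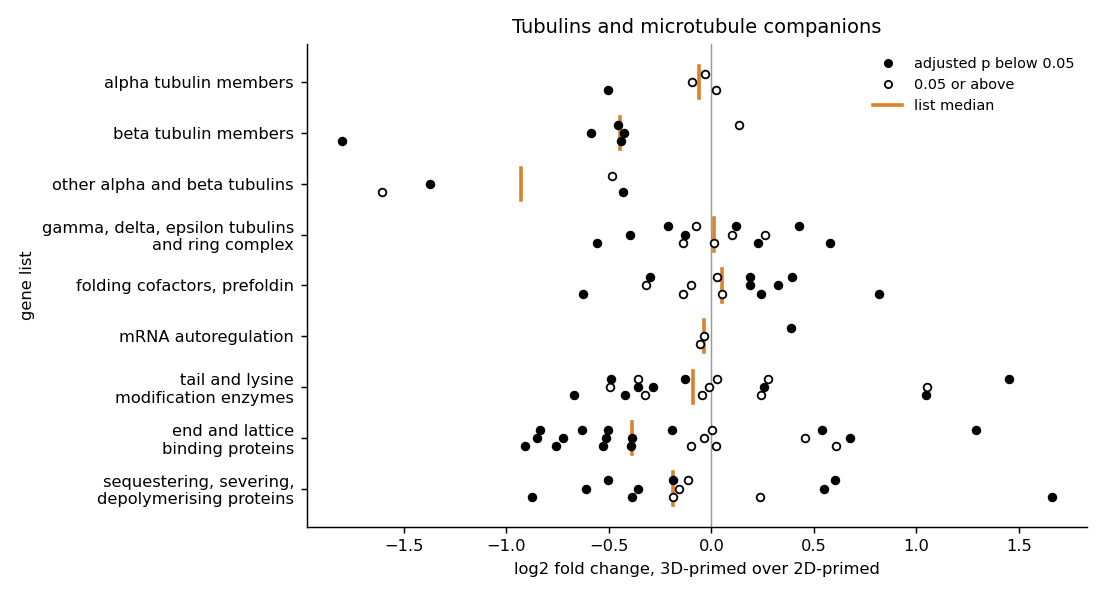
Log2 fold change, 3D-primed over 2D-primed, of each tested gene in the tubulin and companion lists, filled where the adjusted p of edgeR was below 0.05, with an orange line at each list's median. The beta isotypes have a median of -0.45 and the alpha isotypes of -0.06, and the end and lattice binding proteins have one of -0.39.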

How the data were processed

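Poly(A) RNA of 4 2D-primed and 4 3D-primed HepG2 cultures was sequenced. The counts the authors deposited are estimates per gene from Salmon on Ensembl cDNA of GRCh38, summed with tximport, whole numbers not scaled for depth. Whether tximport corrected the counts for transcript length is not given in the sources used here. Symbols came from GENCODE by identifier, and 34977 of 38032 identifiers were found. The others carried 2.38 to 2.57% of counts.

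Genes with 10 counts in 2 of 8 libraries were tested with edgeR 4.0.16 (TMM, quasi-likelihood F test, Benjamini-Hochberg adjustment) in R 4.3.3, and the standard error is the log2 fold change over the square root of F. The approximate interval of TUBA1B spans 1.96 standard errors to each side, the normal multiplier for 95%, and is narrower than the F test implies. The procedure was tested on simulated data. Shares were compared one by one with exact permutation tests in SciPy 1.17.1. Coding sequences were aligned in Biopython 1.88, and some of them are not reported here. Replicates differed beyond counting noise (chi-square per degree of freedom 6.07 to 16.4), and the spread between libraries, not depth, limits most values. The alternatives included DESeq2 1.42.0 and limma-voom (limma 3.58.1). The isotypes and lists were chosen with earlier results of these data known. All 10 isotypes, the other tubulin genes of the lists and the 3 members of each companion list with the smallest p are named.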

Additional observations from a re-analysis of the deposited data

Results flagged for a closer look

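In groups of 4 libraries, 44 sets of levels, shares and sums of the tubulin isotypes were searched for a library that stood far from the rest, where chance flags about 1 in 20 groups. 3 values stood apart. TUBB2B in 2D-primed library 3 was at 45.5 CPM, where the other 2D-primed libraries lay between 33.9 and 34.6 CPM. TUBB6 in 3D-primed library 1 was at 4.00 CPM, where the other 3D-primed libraries lay between 5.32 and 5.58 CPM. The share of TUBB6 in the beta total was 0.344% in that same library and 0.481 to 0.490% in the other 3D-primed libraries. Without 2D-primed library 3 the log2 fold change of TUBB2B was -0.47, and without 3D-primed library 1 that of TUBB6 was -1.71, and both genes stayed below the threshold (edgeR, adjusted p = 0.011 and 1.1e-06).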

How the results depend on the processing

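The 6 called isotypes were lower in 3D-primed cells and past the threshold in all 17 settings. These changed the scaling, the filter, the tool, the replicate block or left out 1 library, and none added reads under other identifiers to TUBB. The number of isotypes called ran from 6 to 8, with 8 by DESeq2, 7 by limma-voom and 6 to 7 with a library left out. TUBB4B crossed the threshold in 8 settings and TUBA1C in 2, DESeq2 among both. The summed beta level had a log2 ratio of -0.32, and -0.27 with upper-quartile factors, the scaling that moved it most. The summed alpha ratio ran from -0.07 to 0.02, so that it has no stable sign. In the companion lists 17 to 23 genes rose and 29 to 33 fell, and with a library left out 17 to 20 and 30 to 33. The replicate numbers were not used as pairs. With the replicate block the log2 fold changes of 7 isotypes were called, TUBB4B being added (0.13, adjusted p = 0.042 in edgeR), and 19 and 31 companion genes rose and fell. Libraries with the same number had correlations of -0.043 to 0.057 across genes, within the -0.083 to 0.11 of other pairs. Genes at few counts, TUBAL3 among them, are limited by depth. TUBA1A, at 73 to 124 counts a library, also spread widely between 3D-primed libraries, at 3.72 ± 0.836 CPM. The counts say nothing of tubulin protein.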
